A study of Mus musculus with 8 samples.

Results

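The genes described here are 9 regulators of mitochondrial and fatty acid metabolism in heart muscle. They are the genes of the estrogen-related receptors (*Esrra*, *Esrrb* and *Esrrg*), of the PGC-1 coactivators (*Ppargc1a* and *Ppargc1b*), of peroxisome proliferator-activated receptors (*Ppara* and *Ppard*), of the muscle coregulator PERM1 (*Perm1*) and of the transcription factor NRF1 (*Nrf1*). Acetylation of histone H3 at lysine 27 (H3K27Ac), which marks promoters and enhancers in use, was described at the peaks of these genes. A peak was assigned to a gene when its centre lay nearest to one of the gene's curated RefSeq transcription starts in mm10. By that rule the 9 genes had 50 of the 45987 peaks in the authors' deposited table.

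H3K27Ac ChIP-Seq was done on mouse ventricles at postnatal day 7, with or without a deletion of *Arid1a* in cardiomyocytes. This gene encodes ARID1A, a DNA-binding subunit of the SWI/SNF chromatin remodelling complex. The 2 control samples were *Arid1a* f/f, and the 2 *Arid1a cKO* samples carried aMHC-Cre on the same *Arid1a* f/f background. The aMHC promoter drives Cre in cardiomyocytes, so other cells of the ventricle keep an intact gene. Each group had 2 H3K27Ac and 2 input libraries, for 8 in all. The deposited table gives the log2 of the authors' mean of normalized reads in each group, and it is printed here as normalized reads. It holds no values of single samples, so the depth of each library and the error between replicates are unknown, no test between the groups could be run, and every difference below is a description of group means. A log2 difference is *Arid1a cKO* minus control. A peak is called lower or higher where the group means lie at least 2-fold apart. Such a call was not checked against replicates here, and the authors' own p-value and FDR columns were not used.

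Estrogen-related receptors are orphan nuclear receptors that bind DNA without a known natural hormone and switch on genes for the respiratory chain, the citrate cycle and fatty acid oxidation. PGC-1 coactivators bind no DNA themselves. They dock on these receptors and on PPARs, which sense fatty acids and act as pairs with retinoid X receptors, and they recruit histone acetyltransferases to the target genes. The circuit is known for the change of heart muscle after birth from glucose and lactate to fatty acids as fuel.

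The targeted gene, *Arid1a*, had a peak over its promoter (chr4:133749994-133758098) with 1607 normalized reads in control and 1663 in *Arid1a cKO* ventricles, a log2 difference of 0.05. A second, intronic *Arid1a* peak had 17.4 and 17.1 normalized reads. H3K27Ac at a promoter does not report whether exons downstream were removed, so these values check nothing about the deletion. The position of the floxed exons is not given in the sources used here.

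Of the 50 peaks of the regulator genes, 9 (18.0%) were at least 2-fold lower in *Arid1a cKO* ventricles, where 10.6% of all peaks were, and 2 (4%) were at least 2-fold higher, where 4.57% of all peaks were. At a limit of 3-fold the order turned, with 1 of the 50 (2%) lower beside 5.60% of all peaks. The lower peaks belonged to *Esrrb* (1), *Esrrg* (2), *Ppargc1a* (4), *Ppargc1b* (1) and *Ppara* (1), and both higher peaks to *Esrrg*. The remaining genes, *Esrra*, *Ppard*, *Perm1* and *Nrf1*, had no peak past 2-fold in either direction. The median log2 difference was −0.32 over the 50 peaks and 0.01 over all peaks, and 35 of the 50 (70.0%) lay below 0 against 48.3% of all peaks. Most of these shifts were small, with 27 of the 50 peaks within 0.5 of 0 on the log2 scale. In ventricular tissue, fewer cardiomyocytes and less H3K27Ac per cardiomyocyte cannot be told apart. No group mean of these peaks was at or under 3 normalized reads, the floor below which a fold would only be a bound.

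**Figure D1:**
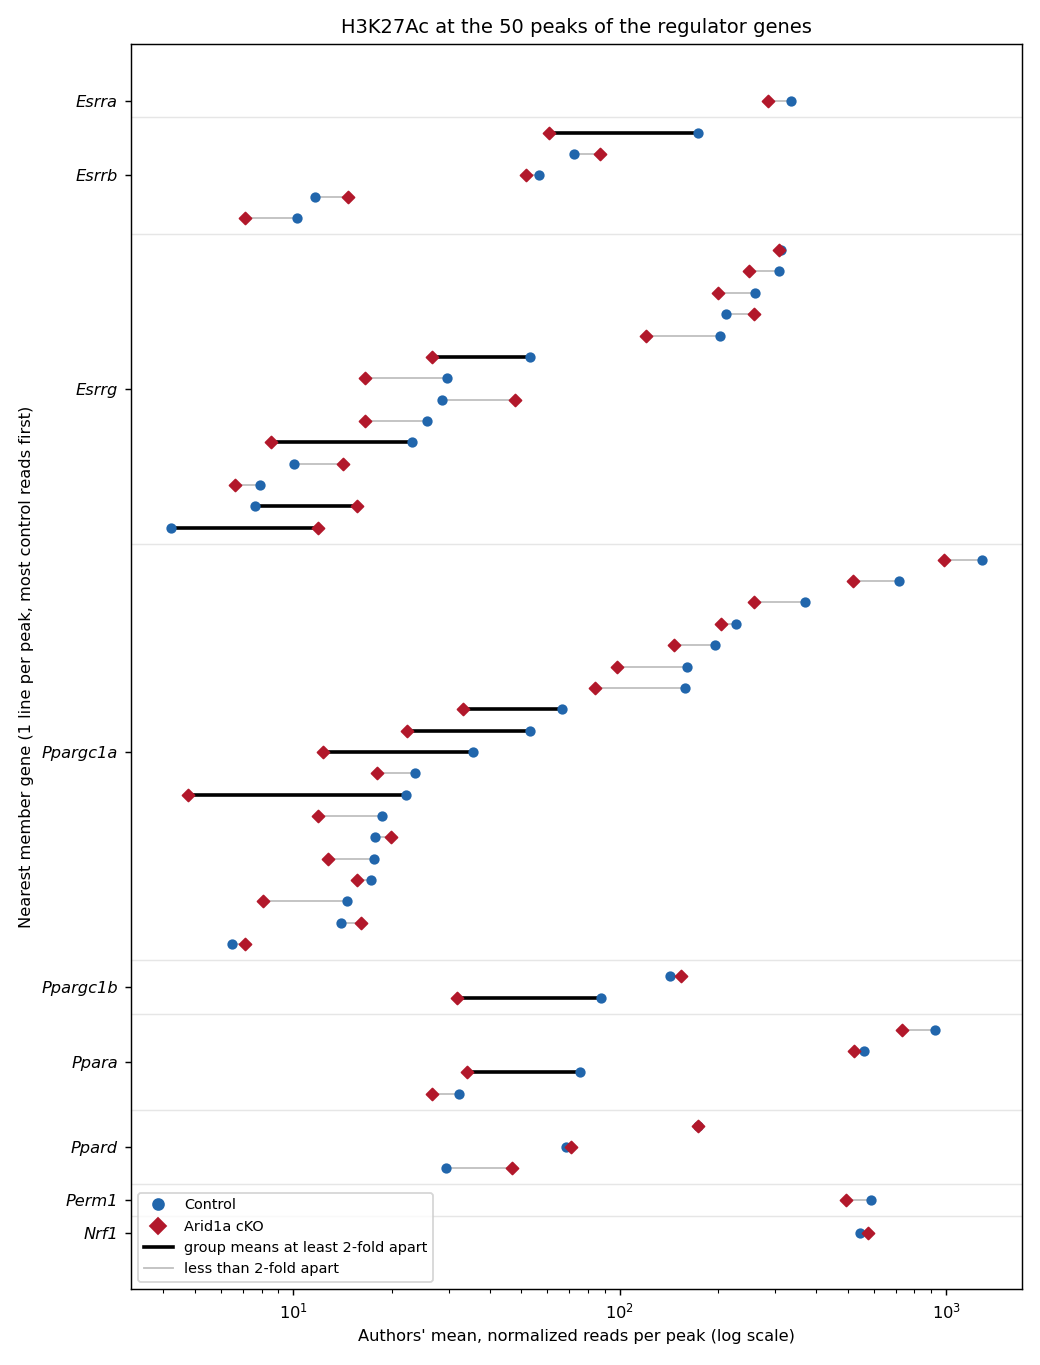
Authors' mean of normalized reads (log scale) of each of the 50 peaks in control (blue circles) and *Arid1a cKO* ventricles (red diamonds), by nearest gene. Black lines join the 11 pairs of group means at least 2-fold apart, of which 9 are lower and 2 higher in *Arid1a cKO*.

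The lower peaks were described by height and by distance from a start. With all peaks ranked by control reads into 4 equal groups from low to high, the lower calls among the regulators' peaks were 0 of 12, 3 of 10, 5 of 8 and 1 of 20, and over all peaks 8.82%, 16.1%, 12.4% and 5.14% were called lower. The tallest group, above 131 normalized reads, thus held 20 of the 50 peaks and 1 lower call, the start peak of *Esrrb*. Within 1 kb of a start, 1 of 10 peaks was lower, against 1.76% of all such peaks. Farther than 1 kb, 8 of 40 were lower (20.0%), against 13.3% of all distal peaks. By the position of their centres, 3 peaks lay in promoters (from 1000 bases before to 100 after a start), 3 in exons, 31 in introns and 13 between genes. Intronic peaks made up 62.0% of the regulators' peaks and 50.8% of all peaks.

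**Figure D2:**
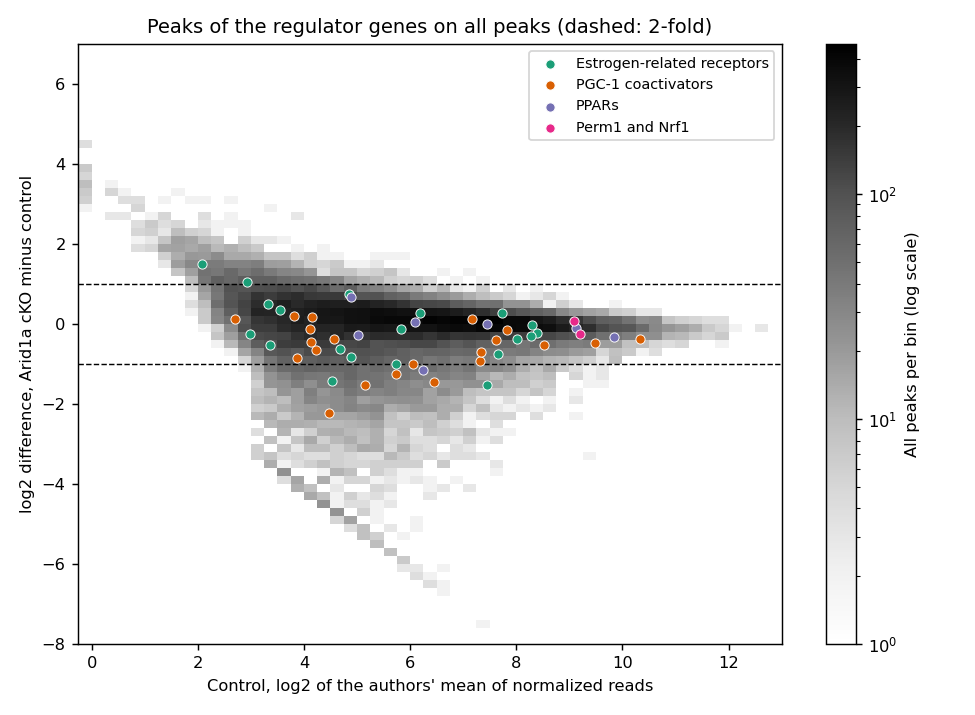
Log2 difference of the group means against the log2 of the control mean for all 45987 peaks (grey, binned) and for the 50 peaks of the regulator genes (coloured by family). The dashed lines mark 2-fold, and most coloured points lie between them and below 0, around a median of −0.32.

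*Esrra* encodes ERRα, the most widely expressed of the receptors and a main partner of PGC-1α. Its only peak (chr19:6919230-6923303) covered the start, with 335 normalized reads in control and 284 in *Arid1a cKO* ventricles, a log2 difference of −0.24. ERRα is known to act on its own promoter. The peak held 3 matches to TNAAGGTCA, the element that a single ERR molecule binds (N is any base), of which a pair lay 533 and 556 bases upstream of the start and 1 in an intron. The upstream pair is shown because it repeats in the same orientation, with 23 bases from the beginning of 1 to that of the other, in mm10 at chr19:6922327-6922378 on the minus strand, which is the strand of the gene, with the elements in capitals as their reverse complement.
*Esrra* upstream elements: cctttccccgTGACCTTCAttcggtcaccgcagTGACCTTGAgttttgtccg
A match is a description of letters and not evidence that the receptor was bound.

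*Esrrb* encodes ERRβ, known for its work in pluripotent cells and also made in heart muscle. It had 5 peaks, and its lower one was the tallest. This peak (chr12:86360121-86362381) covered the upstream start, its centre 134 bases into the first exon, and had 174 normalized reads in control and 60.5 in *Arid1a cKO* ventricles. That is a log2 difference of −1.52, or 2.87-fold lower, and it was the only lower call within 1 kb of a start among the 9 genes. Only 6% of all peaks had a log2 difference as low. The second start, 60 kb downstream by the annotation, had a low peak with 10.3 and 7.11 normalized reads (−0.53). The peaks in introns lay between −0.13 and 0.34 on the log2 scale, and the highest of them (chr12:86516422-86517412) had 11.6 normalized reads in control and 14.7 in *Arid1a cKO* ventricles.

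The promoter of *Esrrb* at the start that was lower is shown beside the promoter of *Nrf1*, whose peak differed little, because they differ in the number of CG pairs. Both are RefSeq promoter windows of 300 bases from the table for GRCm38.p6, the assembly that mm10 stands for, on the plus strand, at chr12:86360867-86361166 and chr6:30047738-30048037. Capitals mark CG pairs.
*Esrrb* promoter: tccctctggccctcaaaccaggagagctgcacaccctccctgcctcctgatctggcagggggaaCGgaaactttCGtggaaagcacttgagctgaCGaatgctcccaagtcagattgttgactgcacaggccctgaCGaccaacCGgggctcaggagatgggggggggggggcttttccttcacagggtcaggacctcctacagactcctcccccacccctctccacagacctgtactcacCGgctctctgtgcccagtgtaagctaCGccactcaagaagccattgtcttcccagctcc
*Nrf1* promoter: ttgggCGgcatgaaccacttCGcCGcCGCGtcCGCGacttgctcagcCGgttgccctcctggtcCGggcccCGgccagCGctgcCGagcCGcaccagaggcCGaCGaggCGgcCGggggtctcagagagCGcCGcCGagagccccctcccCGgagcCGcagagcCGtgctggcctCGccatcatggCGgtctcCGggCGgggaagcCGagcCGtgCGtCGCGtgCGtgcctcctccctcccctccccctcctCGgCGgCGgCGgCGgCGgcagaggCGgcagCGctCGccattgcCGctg
The *Esrrb* window held 7 CG pairs, equal to the median of 7 over 32851 such windows, and the *Nrf1* window held 43. *Ppargc1a* with 5 CG pairs and *Perm1* with 4 had fewer than *Esrrb*, and their start peaks differed little (−0.16 and −0.25). The window of the second *Esrrb* start also held 7 CG pairs, and its peak had a log2 difference of −0.53. A relation of CG pairs to the difference was not tested. The window of *Ppargc1b* was not used here.

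*Esrrg* encodes ERRγ, which is abundant in heart and drives the postnatal metabolic program with ERRα. Its 14 peaks were spread over a gene of 606 kb with 4 starts. At the upstream start the peak (chr1:187608318-187611405) had 212 normalized reads in control and 258 in *Arid1a cKO* ventricles (0.28). At the pair of starts about 43 kb downstream, the peak (chr1:187649881-187654077) had 260 and 199 normalized reads (−0.38), and at the last start (chr1:187997170-187998741) 29.7 and 16.6 (−0.84). The tall peaks of *Esrrg* thus stayed within 2-fold in both directions. The peak with the most control reads (chr1:187907136-187913496), in an intron, had 313 normalized reads in control and 309 in *Arid1a cKO* ventricles (−0.02).

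Both lower and both higher *Esrrg* peaks lay in introns, 17.5 to 144 kb from a start. The lowest (chr1:187795569-187796536) had 23.1 normalized reads in control and 8.57 in *Arid1a cKO* ventricles (−1.43), and the other lower one (chr1:187951062-187953103) had 53.1 and 26.5, exactly 2-fold apart and so at the limit of the call. The higher ones started from few reads. At chr1:187669441-187670117 the group means were 4.23 and 11.9 normalized reads (1.49), and at chr1:187930586-187931401 they were 7.62 and 15.7 (1.04). Of all peaks in the lowest of the 4 groups by control reads, 15.9% were called higher, so a call of this kind was common at that height. The highest *Esrrg* peak is shown because it held 3 cores AGGTCA, of which 1 was part of an ERR element, in mm10 at chr1:187669738-187669958 on the plus strand, with the cores and the element in capitals.
*Esrrg* highest peak: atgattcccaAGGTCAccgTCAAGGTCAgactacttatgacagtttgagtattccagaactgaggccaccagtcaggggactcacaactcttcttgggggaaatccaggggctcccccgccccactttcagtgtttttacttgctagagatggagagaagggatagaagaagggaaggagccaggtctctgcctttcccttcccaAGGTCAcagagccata

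The start of *Esrrg* and the start of *Esrrb* also shared an element. The same 10 letters of a MEF2 element, bound by the MEF2 factors of muscle, lay 18 bases upstream of the first *Esrrg* start and 264 bases downstream of the first *Esrrb* start, within its first exon. They are shown because the peaks over them went apart, with log2 differences of 0.28 and −1.52. The *Esrrg* sequence is its RefSeq promoter window (chr1:187608756-187609055, plus strand) and the *Esrrb* sequence is from mm10 (chr12:86361367-86361396, plus strand), with the MEF2 element in capitals.
*Esrrg* promoter: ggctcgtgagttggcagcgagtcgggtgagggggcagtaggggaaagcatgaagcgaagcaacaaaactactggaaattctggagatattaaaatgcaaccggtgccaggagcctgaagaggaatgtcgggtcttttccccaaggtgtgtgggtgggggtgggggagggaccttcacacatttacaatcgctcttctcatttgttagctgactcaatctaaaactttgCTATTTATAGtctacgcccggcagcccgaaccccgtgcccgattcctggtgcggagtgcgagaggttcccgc
*Esrrb* MEF2 element: gagtctggatCTATTTATAGtttgagagta
A MEF2 element, with any of the letters that the search allowed, lay in 0.557% of the 32851 RefSeq promoter windows, and the one of *Esrrb* lies outside its window.

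*Ppargc1a* encodes PGC-1α, the inducible coactivator that raises mitochondrial content and fatty acid oxidation in cold, fasting and exercise. It had 19 peaks, a number that 0.710% of the genes with a peak reached, and 16 of the 19 had a log2 difference below 0. RefSeq gives it 2 starts, the upstream one of a noncoding transcript and the downstream one of the coding transcript. The peak at the upstream start (chr5:51565762-51569149) had 228 normalized reads in control and 204 in *Arid1a cKO* ventricles (−0.16). The peak with the most control reads among all 50 was a domain of 16087 bases that covered the downstream start, with its centre 3.56 kb into the gene from there (chr5:51542317-51558403), and it had 1287 and 982 normalized reads (−0.39). A domain 26.2 kb upstream of the upstream start (chr5:51590025-51597777) had 719 and 519. The peaks over both starts therefore stood within 2-fold, and the 4 lower calls were at smaller peaks.

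Of these 4, 1 lay in an intron, 1 beyond the end of the gene and 2 upstream. The intronic one (chr5:51511129-51512138) had 35.5 normalized reads in control and 12.3 in *Arid1a cKO* ventricles (−1.53). The one 15.6 kb upstream (chr5:51582165-51584461) had 53.1 and 22.3 (−1.25), and the one just beyond the end of the gene (chr5:51451076-51452961) had 66.7 and 33.1 (−1.01). The lowest of all 50 peaks lay 274 kb upstream (chr5:51841098-51842150), at 22.2 normalized reads in control and 4.76 in *Arid1a cKO* ventricles. Its log2 difference of −2.22 is 4.66-fold lower, and 2.98% of all peaks were as low. It has *Ppargc1a* as its nearest start, which does not show that it acts on that gene. The highest *Ppargc1a* peak (chr5:51453665-51454810) had 14.0 and 16.1 normalized reads (0.20).

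**Figure D3:**
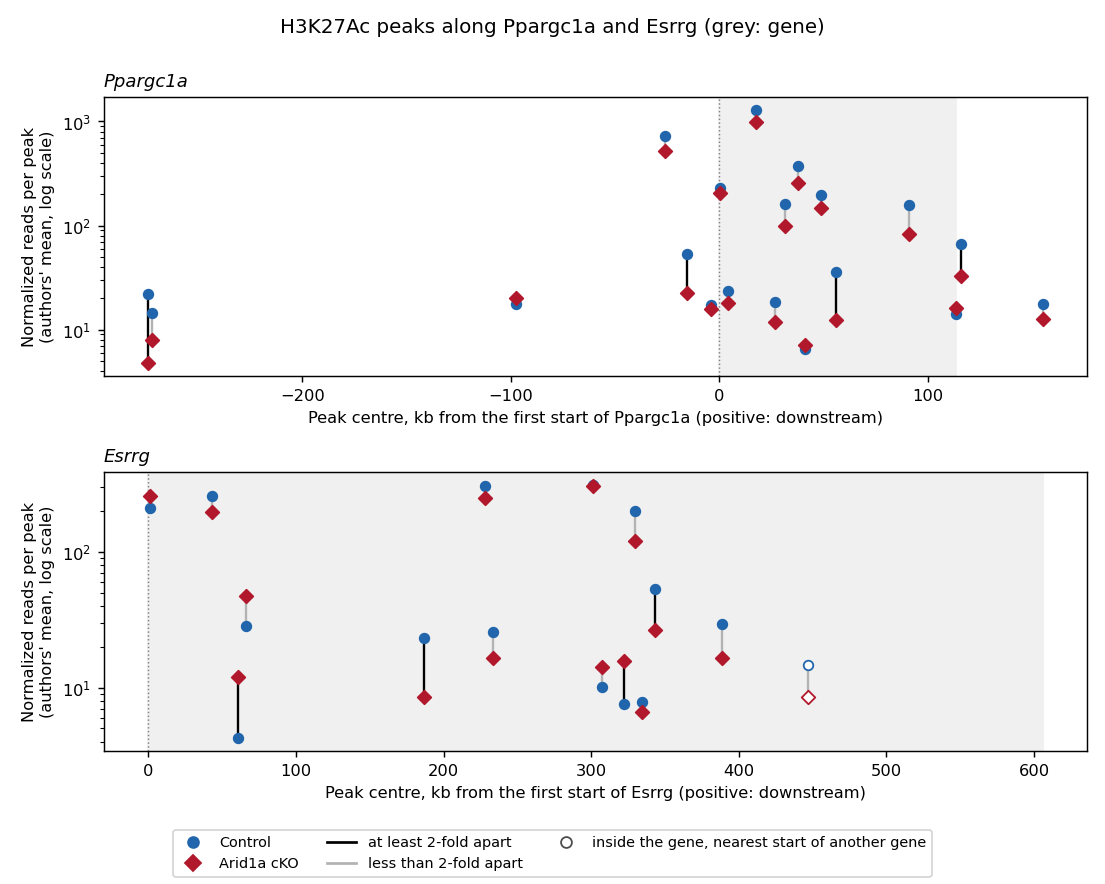
Normalized reads per peak (authors' mean, log scale) along *Ppargc1a* and *Esrrg*, by the distance of the peak's centre from the gene's first start in kb. Grey marks the gene, open symbols a peak inside it that lies nearest to another gene's start, and black lines group means at least 2-fold apart, such as the *Ppargc1a* peak 274 kb upstream with 22.2 and 4.76 reads.

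Sequence from a pair of *Ppargc1a* peaks is shown because they have the most control reads and the lowest log2 difference of the gene, the domain over the downstream start and the far upstream peak. The intronic stretch from the domain (chr5:51546442-51546566, mm10, minus strand, the strand of the gene) holds an ERR element, as its reverse complement, and a MEF2 element within 125 bases, in capitals. The 200 bases at the centre of the far upstream peak (chr5:51841525-51841724, mm10, minus strand, between genes) hold no core AGGTCA and have no capitals. The stretch from the domain was chosen around its elements, while the far upstream bases were taken at the peak's centre. The domain is 16087 bases long and the far upstream peak 1053. The elements in these sequences therefore cannot be compared between the peaks.
*Ppargc1a* domain, intronic stretch: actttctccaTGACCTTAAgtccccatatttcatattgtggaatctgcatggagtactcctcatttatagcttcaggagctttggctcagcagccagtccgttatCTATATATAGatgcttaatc
*Ppargc1a* far upstream peak: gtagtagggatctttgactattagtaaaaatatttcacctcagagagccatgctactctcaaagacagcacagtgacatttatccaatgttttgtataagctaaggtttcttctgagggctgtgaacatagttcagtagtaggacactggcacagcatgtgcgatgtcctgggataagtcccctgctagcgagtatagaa

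*Ppargc1b* encodes PGC-1β, the close relative of PGC-1α that keeps up mitochondrial mass. By the nearest start it had only 2 peaks, both upstream of the gene. The one 30.5 kb upstream (chr18:61429756-61432023) had 87.4 normalized reads in control and 31.8 in *Arid1a cKO* ventricles (−1.46), and the one 16.1 kb upstream (chr18:61415228-61417833) had 143 and 154 (0.11). The count is low because *Mir378a*, a microRNA gene transcribed from within *Ppargc1b*, lies near its start and took 13 peaks that are centred inside *Ppargc1b*.

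Those 13 peaks were added after the table had been seen, chosen by position and not by value. The peak over the start of *Ppargc1b* (chr18:61391796-61403516) was the tallest, with 1965 normalized reads in control and 1629 in *Arid1a cKO* ventricles (−0.27). An intronic domain 63.8 kb from the start (chr18:61330133-61343124) had 644 and 360 (−0.84). Of the 13, 1 was at least 2-fold lower (chr18:61388961-61389872, 15.2 and 6.63 normalized reads, −1.20) and 1 at least 2-fold higher (chr18:61372241-61373185, 7.46 and 18.5, 1.31), where 10.6% and 4.57% of all peaks were. Their median log2 difference was −0.30, and 9 of the 13 lay below 0. The reads summed over the 13 peaks were 4087 in controls and 3129 in *Arid1a cKO* ventricles, a log2 difference of −0.39.

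*Ppara* encodes PPARα, the receptor that turns on fatty acid oxidation genes when fatty acids are plentiful, and all 4 of its peaks had a log2 difference below 0. The promoter peak (chr15:85733326-85737871) was its tallest, with 923 normalized reads in control and 734 in *Arid1a cKO* ventricles (−0.33). A peak 20.1 kb downstream of the start, in an intron (chr15:85754176-85757586), was lower, with 75.6 and 34.1 normalized reads (−1.15). The highest value was that of a peak 11.3 kb upstream (chr15:85721667-85726815), with 560 and 523 normalized reads (−0.10).

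Another 4 peaks are centred in introns near the 3′ end of *Ppara* but lie nearest to the start of the neighbouring gene *Cdpf1*. All 4 were at least 2-fold lower, where 10.6% of all peaks were. The 4 lay 51.5 to 63.5 kb from the start of *Ppara* and, like those inside *Ppargc1b*, were added by position after the table had been seen. The lowest (chr15:85791535-85794165) had 122 normalized reads in control and 6.15 in *Arid1a cKO* ventricles. Its log2 difference of −4.31 is 19.8-fold lower, and 0.481% of all peaks were as low. The tallest of the 4 (chr15:85797989-85800117) had 179 and 79.9 (−1.16), and the others had 46.9 and 14.7 (−1.67) and 26.5 and 7.57 (−1.81). Together they held 374 normalized reads in control and 108 in *Arid1a cKO* ventricles (−1.79). The promoter of *Ppara* and the 3′ part of the gene thus differed in how far the mark was lower. The central 300 bases of the lowest peak are shown because it had the greatest difference of any peak inside these genes, in mm10 at chr15:85792701-85793000 on the plus strand, with a core AGGTCA, read on the other strand, in capitals.
*Ppara* intronic peak: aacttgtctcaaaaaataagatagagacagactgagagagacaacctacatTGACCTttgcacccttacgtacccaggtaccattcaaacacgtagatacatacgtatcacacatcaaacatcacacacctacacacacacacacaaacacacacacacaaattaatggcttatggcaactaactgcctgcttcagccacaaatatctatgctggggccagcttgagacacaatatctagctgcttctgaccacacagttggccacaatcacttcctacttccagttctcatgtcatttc

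**Figure D4:**
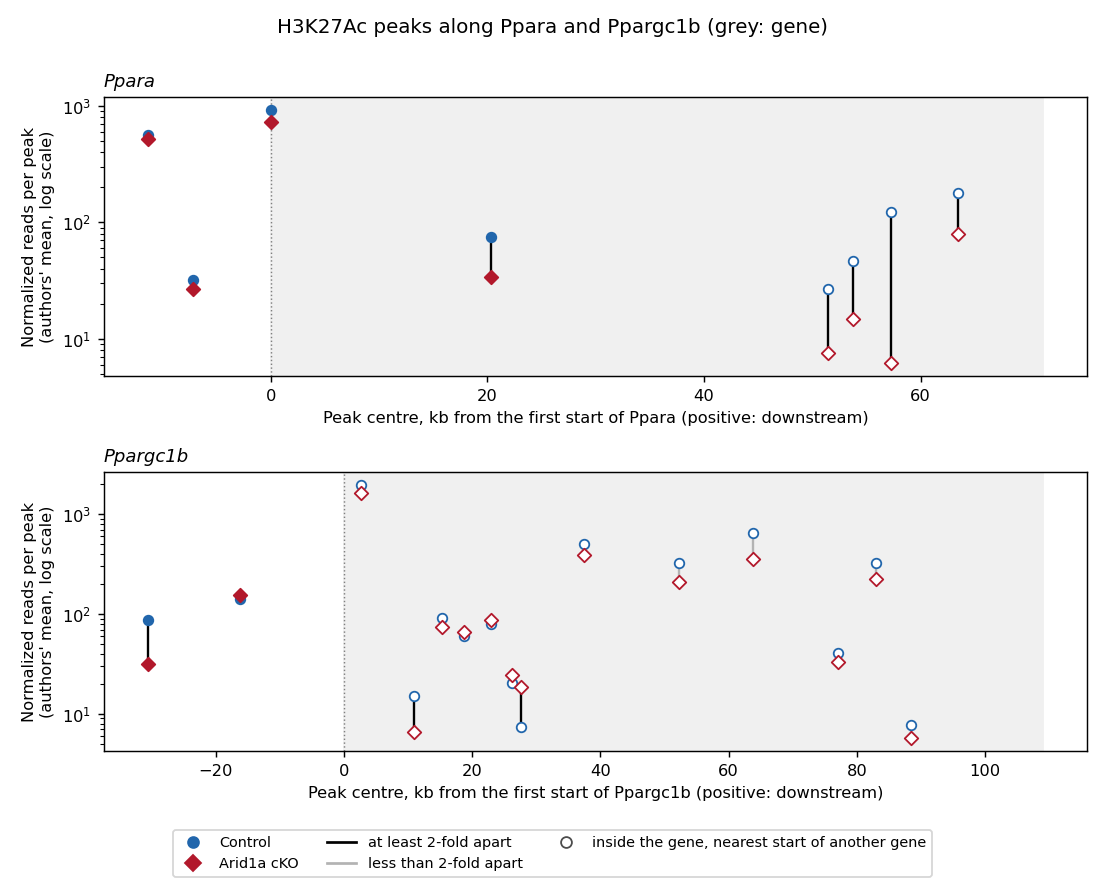
Normalized reads per peak (authors' mean, log scale) along *Ppara* and *Ppargc1b*, by the distance of the peak's centre from the gene's first start in kb, with the gene in grey. Open symbols are peaks inside the gene that lie nearest to another gene's start. The 4 open pairs of *Ppara* are all at least 2-fold lower in *Arid1a cKO*, beside 10.6% of all peaks. The lowest of the 4 is at 122 and 6.15 reads.

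*Ppard* encodes PPARδ, which serves the same kind of genes in muscle and is made in most tissues. Its start peak (chr17:28232246-28234597) had 174 normalized reads in each group (0.00). The other 2 peaks had log2 differences of 0.05 and 0.67, the latter from 29.4 normalized reads in control and 46.9 in *Arid1a cKO* ventricles at chr17:28223235-28224488. None of the 3 lay below 0, unlike those of *Ppara*. A further 3 peaks centred inside *Ppard* but nearest to other starts had log2 differences from −0.17 to 0.25. The same step added 1 *Esrrg* peak, with 14.7 and 8.51 normalized reads (−0.79). With all 21 peaks of this kind added, 14 of 71 peaks were at least 2-fold lower (10.6% of all peaks) and 3 at least 2-fold higher (4.57% of all peaks). The lower share of the PPAR genes then became 5 of 14 (35.7%) from 1 of 7 (14.3%), and that of the PGC-1 genes 6 of 34 (17.6%) from 5 of 21 (23.8%), so the order of the families depended on how peaks were assigned.

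*Perm1* encodes a muscle protein that PGC-1 and ERR induce and that in turn raises the output of their target genes. Its only peak (chr4:156214236-156220633) covered the start and most of the gene, with 588 normalized reads in control and 495 in *Arid1a cKO* ventricles (−0.25). *Nrf1* encodes a factor of nuclear genes for the respiratory chain and for the copying of mitochondrial DNA, with which PGC-1α works. Its only peak, at the first of its 3 starts (chr6:30046805-30049457), had 545 and 576 normalized reads (0.08). *Nrf1* had the most signal per length of the 9 genes, at 205 normalized reads per kb of peak in controls, followed by *Ppara* at 105, *Perm1* at 91.9 and *Esrra* at 82.3. *Ppard* had the least, at 39.0 normalized reads per kb. The order depends on which peaks a gene was given. *Nrf1* had only its start peak, and the start peak of *Ppara* alone had 203 normalized reads per kb in controls. That of *Ppargc1b*, at 168, went to *Mir378a* and is left out. Without values of single samples, it cannot be said which neighbours in this order differ beyond their spread.

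Reads summed over all peaks of a gene give 1 value per gene in which tall peaks count most, and 7 of the 9 genes lay below 0 on this scale against 50.3% of the 15765 genes with a peak. *Esrrb* was the lowest, with 325 normalized reads in control and 221 in *Arid1a cKO* ventricles (−0.56), at percentile 10.1 of those genes. *Ppargc1a* followed with 3426 and 2474 (−0.47, percentile 12.2). *Ppargc1b* (−0.31), *Ppara* (−0.27), *Perm1* (−0.25), *Esrra* (−0.24) and *Esrrg* (−0.19) lay between percentiles 18.5 and 25.8. *Nrf1* (0.08) and *Ppard* (0.10) were the only ones above 0, at percentiles 63.4 and 66.1. The order depends on how peaks are assigned. The value of *Ppara* became −0.46 with peaks inside the gene added and −0.0608 with protein-coding starts only, that of *Esrrb* became −1.44 and that of *Esrrg* −0.0689 with only peaks within 50 kb of a start, and that of *Esrra* −0.0177 with all peaks within 50 kb of the gene. The value of *Ppargc1b* leaves out its own start peak. The value of *Esrrb* came from its start peak, since the other 4 were within 2-fold. *Ppargc1a* had 16 peaks below 0, but its sum gives most weight to tall ones. Among these were the domains with 1287 and 982 and with 719 and 519 normalized reads.

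Among the genes whose summed reads in the 2 groups lay near those of *Esrrb*, by Euclidean distance on the log2 scale, were *Grhl3* (319 and 226 normalized reads, distance 0.04) and *4930546K05Rik* (334 and 221, distance 0.04). Nearest to *Ppard*, with 272 and 292 normalized reads, were *Idh3g*, *Nup50* and *Tapbpl*, each within a distance of 0.01. Likeness over 2 group means says nothing of shared function.

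The sequence of the peaks was searched on both strands for elements of these receptors, in the central 500 bases of each peak. An ERR element, TNAAGGTCA, lay in 5 of the 50 peaks (10%, Wilson interval at 95% from 4.35% to 21.4%, for the error of counting alone) and in 3.64% of all peaks. The interval takes the 50 peaks as independent, although 19 were of *Ppargc1a* and 14 of *Esrrg*. The core AGGTCA, which every ERR element contains, lay in 22 (44.0%) and in 30.4% of all peaks. A direct repeat, AGGTCA repeated directly after 1 base, is the element of PPAR with a retinoid X receptor. It lay in 0 of the 50 peaks and in 0.0979% of all peaks, so its exact form was too rare to compare. A MEF2 element lay in 5 of the 50 (10%) and in 2.58% of all peaks.

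The same elements were counted in the 9 lower peaks, too few to compare shares. The ERR element lay in 0 of the 9, whether their centres or their whole length was read, and in 6.27% (centre) and 16.3% (whole length) of all lower peaks. The 5 peaks with a central ERR element were 1 of *Ppargc1a* (370 and 258 normalized reads, −0.52), 1 of *Ppargc1b* (0.11) and 3 of *Esrrg* (−0.25, 0.74 and 1.49). Of the 9 lower peaks, 1 had a central MEF2 element, the start peak of *Esrrb*, as did 5.56% of all lower peaks. No match says only that these letters are absent from the window.

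Partners and targets of the circuit were described from 4 lists, to set the regulators beside the genes they work with. Of 22 receptor partners and coregulators, 20 had peaks (not *Kat2a* or *Hnf4a*), and 23 of their 136 peaks (16.9%) were at least 2-fold lower and 4 (2.94%) at least 2-fold higher, beside 10.6% and 4.57% of all peaks, with a median log2 difference of 0.04. Of the lower ones, 2 had a group mean at or under the floor of 3 normalized reads. *Lpin1*, which encodes lipin 1, a partner of PGC-1α and PPARα, had the 2 lowest among peaks above 3 normalized reads in both groups, with 151 and 19.4 normalized reads (−2.96) and 61.0 and 8.06 (−2.92). *Nr2f2*, an orphan receptor gene, came next with 110 and 25.1 (−2.13), and it also had the peak with the second highest value, 4.29 and 13.7 (1.68). The highest was at *Prox1*, a gene of a corepressor of ERRα, with 3.84 and 16.1 (2.07). *Ncor1*, a corepressor gene, had the most control signal per length of this list, at 189 normalized reads per kb in controls and 191 in *Arid1a cKO* ventricles.

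Of 14 mitochondrial biogenesis factors, 9 had peaks (not *Gabpa*, *Tfb1m*, *Tfb2m*, *Mterf1a* or *Twnk*). Of their 16 peaks, 2 (12.5%) were at least 2-fold lower, beside 10.6% of all peaks, and 0 higher, and the median was −0.07. The lower ones were at *Mfn1*, a gene of mitochondrial fusion (79.9 and 35.5 normalized reads, −1.17), and at *Tfam*, which packs and transcribes mitochondrial DNA (79.9 and 38.3, −1.06). The next lowest was again at *Mfn1* (−0.85). The highest were both at *Yy1*, a transcription factor gene (0.30 and 0.45). *Mfn2*, also a fusion gene, had the most control signal per length, at 110 normalized reads per kb in controls and 97.6 in *Arid1a cKO* ventricles.

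Among the fatty acid targets, the share of lower peaks was close to that of all peaks. Of 24 fatty acid uptake and oxidation targets, 23 had peaks (not *Hadha*), and 8 of 78 peaks (10.3%) were at least 2-fold lower and 1 (1.28%) at least 2-fold higher, beside 10.6% and 4.57% of all peaks, with a median of −0.13. The lowest were at *Slc27a1*, a fatty acid transporter gene (16.1 and 3.32 normalized reads, −2.28, and 19.7 and 4.29, −2.20), and at *Fabp3*, the fatty acid binding protein of heart (15.8 and 4.76, −1.73). The highest were at *Cd36*, the main fatty acid translocase (22.3 and 44.6, exactly 2-fold), and *Acot1*, a thioesterase gene (121 and 182, 0.59). *Acot2*, a mitochondrial relative of *Acot1*, had the most control signal per length, with 153 and 148 normalized reads per kb.

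Of 26 genes of the citrate cycle, respiratory chain and ATP transfer, among which the myoglobin gene *Mb* was also listed, 24 had peaks (not *Ndufs1* or *Atp5a1*), and 10 of 63 peaks (15.9%) were at least 2-fold lower and 2 (3.17%) at least 2-fold higher, beside 10.6% and 4.57% of all peaks, with a median of −0.17. *Mb*, which stores oxygen and belongs to none of these processes, gave 5 of the 63 peaks and 1 of the 10 lower calls. Both higher calls were at peaks with a group mean at or under the floor of 3 normalized reads, so their folds are only bounds. Low values lay at *Idh3a* (64.4 and 22.8 normalized reads, −1.50), a gene of isocitrate dehydrogenase, and at *Cox5a* (12.2 and 4.72, −1.37), a subunit gene of cytochrome oxidase. Among peaks above 3 normalized reads in both groups, the highest were at *Ckmt2*, the mitochondrial creatine kinase gene (5.62 and 10.4 normalized reads, 0.89), and *Mdh2*, a malate dehydrogenase gene (48.2 and 85.0, 0.82). The summed reads of *Ckmt2* were nevertheless 695 in control and 438 in *Arid1a cKO* ventricles (−0.67). *Uqcrc2*, a complex III gene, had the most control signal per length, with 243 and 237 normalized reads per kb. Peaks below 0 made up 71.8% of the fatty acid list and 73.0% of the list of citrate cycle, respiratory chain and ATP transfer, but 44.9% of the partners and 50% of the biogenesis factors, beside 48.3% of all peaks. They also made up 65.5% of the peaks of cardiomyocyte markers and 8.16% of those of fibroblast markers.

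**Figure D5:**
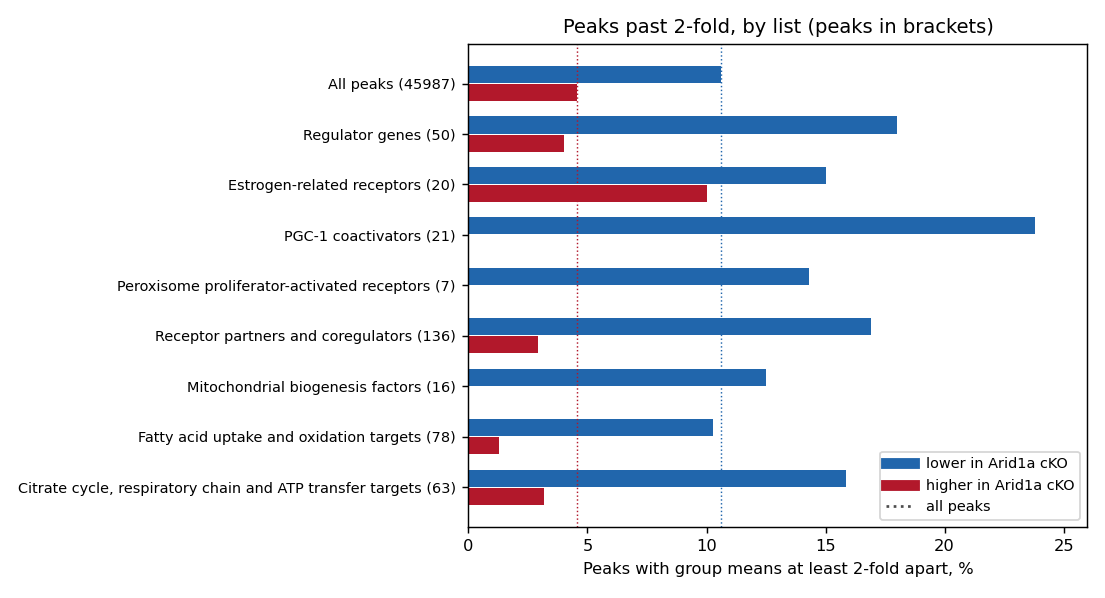
Percentage of peaks with group means at least 2-fold apart, lower (blue) or higher (red) in *Arid1a cKO*, for all peaks, the regulator genes, their families and the 4 lists of partners and targets, with the number of peaks in brackets. Dotted lines mark all peaks, at 10.6% lower and 4.57% higher, and by the nearest start 23.8% of 21 PGC-1 peaks and 14.3% of 7 PPAR peaks are lower.

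Markers of the cells in the ventricle were described in the same way. All 9 cardiomyocyte markers had peaks, 55 in all, of which 4 (7.27%) were at least 2-fold lower and 2 (3.64%) higher, beside 10.6% and 4.57% of all peaks, with a median of −0.15. Their summed level was 22370 normalized reads in control and 20296 in *Arid1a cKO* ventricles, and *Pln* was the most abundant per length in control, at 144 and 123 normalized reads per kb, next to *Myh6* at 144 and 157. All 7 fibroblast markers had peaks, and 0 of 49 were lower and 9 (18.4%) higher, beside 10.6% and 4.57% of all peaks, 1 of the 9 under the floor of 3 normalized reads, with a median of 0.46. Their summed level was 3641 and 4960 normalized reads, and *Col1a2* was the most abundant, at 30.2 and 38.6 per kb. The summed level of the cardiomyocyte list thus lay 0.14 lower and that of the fibroblast list 0.45 higher on the log2 scale.

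The other cell types were counted next, in lists of 5 to 47 peaks, beside 10.6% lower and 4.57% higher among all peaks. The 6 endothelial genes had 47 peaks (2 lower, 1 higher) with 11020 and 11223 normalized reads, led by *Cdh5* at 69.8 and 71.9 per kb. The 6 genes of smooth muscle and pericytes had 20 peaks (0 lower, 2 higher) with 2389 and 2841, led by *Acta2* at 50.4 and 89.6 per kb. The paper describes *Acta2* as a gene that normally goes down as the heart matures after birth, so it is not a marker of smooth muscle alone. Of 4 epicardial genes 3 had peaks (not *Upk3b*), 12 in all (0 lower, 2 higher), with 1651 and 1783 normalized reads, led in control by *Wt1* at 54.0 and 47.5 per kb and in *Arid1a cKO* by *Tbx18* at 40.3 and 55.9. Of 6 leukocyte genes 5 had peaks (not *Lyz2*), 9 in all and none past 2-fold, with 310 and 390, led by *Ptprc* at 18.6 and 34.3 per kb. Of 4 atrial genes 3 had peaks (not *Sln*), 5 in all (0 lower, 3 higher, of which 1 under the floor of 3 normalized reads), with 88.4 and 321, a log2 ratio of 1.86 and the largest of the marker lists. *Myl4* led in control at 13.2 per kb, with 15.0 in *Arid1a cKO* ventricles. *Nppa* and *Myl7*, named after their values were seen, made up most of the difference. The *Nppa* peak had 49.5 and 234 normalized reads (2.24), and the *Myl7* peaks together had 11.3 and 56.0 (2.31). The peak under the floor was 1 of those of *Myl7*. The part of these cell types in the values of the regulator genes was not tested.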

How the data were processed

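H3K27Ac was measured by ChIP-Seq in 2 control and 2 *Arid1a cKO* ventricle samples, each with an input library. By the submitters' processing notes, the authors aligned to mm10 (BWA 0.7.17-r1188), found peaks by HOMER relative to merged inputs and kept those present in at least 2 samples. Their group comparison used DiffBind 2.12.0, which the authors ran with DESeq2 1.24.0. The deposited values are the authors' log2 of the mean normalized reads per peak, over all samples and in each group. Their scaling, and whether input was subtracted, are not given in the sources used here. The authors' own fold change, p-value and FDR columns were not used.

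The members and lists were chosen with earlier results of these data known. Peaks were assigned to the nearest start of 45756 curated RefSeq transcripts (GRCm38.p6), after every peak had been checked to end inside its chromosome. A further 7 peaks on unplaced sequences had no gene. Named are all 9 genes, with each gene's start peak or peaks, every peak past 2-fold, the tallest, the lowest and the highest. Of each partner or target list, genes are named from the 3 lowest and 2 highest peaks above 3 normalized reads in both groups, and the gene with the most reads per kb. Alternatives covered the fold limit, the assignment of peaks, low reads, centring, the elements and the promoter window. Steps were tested on simulated data. Python 3.11.15, numpy 2.4.6, pandas 2.3.3, scipy 1.17.1 and matplotlib 3.10.9 were used, with RefSeq promoter sequences matched by symbol for 8 of the 9 genes.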

Additional observations from a re-analysis of the deposited data

How the results depend on the processing

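No paired analysis was possible because the deposited table holds no values of single samples, and for the same reason no replicate was left out. Centring on the median of all peaks left the counts at 9 lower and 2 higher peaks, beside 10.7% and 4.45% of all peaks.

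At a fold limit of 1.5, 16 peaks were lower and 4 higher, beside 17.3% and 12.0% of all peaks. At a limit of 3, 1 was lower and 0 higher, beside 5.60% and 1.35%, so the share of lower peaks stood above that of all peaks at 2-fold and 1.5-fold but not at 3-fold. Lower peaks came to 6 of 32 with only peaks within 50 kb of the start (10.6% of all peaks), to 7 of 50 with 3 normalized reads added (9.03% of all peaks), and to 7 of 36 without the lowest 25% of peaks by concentration (8.63% of all peaks). Higher peaks under the same alternatives came to 1 of 32, 1 of 50 and 0 of 36 (4.57%, 2.69% and 1.90% of all peaks). Peaks inside the gene or within 50 kb of either end were also taken whatever their nearest start. Of these 96, 14 were lower (10.6% of all peaks) and 3 higher (4.57% of all peaks). Their median was −0.17 (−0.175 before rounding), and the summed differences were −0.0177 for *Esrra* and 0.23 for *Ppard*. An alternative chosen after seeing the data added peaks inside a gene to those of the nearest start. By it 14 of 71 were lower (10.6% of all peaks) and 3 higher (4.57% of all peaks), and *Ppara* came to −0.46. With protein-coding starts only, *Ppara* came to −0.0608. Within 50 kb of the start, *Esrrb* came to −1.44 and *Esrrg* to −0.0689. In each of these the construction, other peaks counted for the gene, changed the value. The ERR element lay in 24.0% of the members' whole peaks (14.6% of all whole peaks) and the core alone in 44.0% of their central windows (30.4% of all). Whole peaks are not of equal length, and the members' had a median width of 2177 bases against 1781 for all peaks. A wider peak has more room for a match. With promoters from 2000 bases before to 500 after a start, 7 peaks were in promoters and 1 in exons.

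Values of peaks under about 10 normalized reads rest on few reads, and their error cannot be given from group means.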

Other observations

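Within the list of receptor partners and coregulators, some genes stood out after their values were seen. *Lpin1* had 7 of 13 peaks at least 2-fold lower in *Arid1a cKO* ventricles, where 10.6% of all peaks were, and its summed reads were 1516 in controls and 920 in *Arid1a cKO* ventricles (−0.72). *Prkaa2*, which encodes the catalytic subunit of AMP-activated kinase that prevails in muscle and acts on PGC-1α, had 3 of 6 peaks lower and 1762 and 1025 normalized reads (−0.78). *Rxrg* encodes the retinoid X receptor most restricted to muscle, a DNA-binding partner of PPARs, and both of its peaks were lower, with 135 and 50.7 normalized reads in sum (−1.42, percentile 2.79 of the genes with a peak). *Klf15*, a transcription factor gene of cardiac lipid use, had 2 of 5 lower and 482 and 366 normalized reads (−0.40).

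Further genes of the same list also had more than 1 peak past 2-fold, where 10.6% of all peaks were lower and 4.57% higher. *Nr2f2* had 3 of 15 peaks lower and 2 higher, *Ncoa2* had 2 of 6 lower, and *Prox1* had 1 of 12 lower and 1 higher. The genes named next had 0 or 1 peak past 2-fold. *Rxra*, which encodes the retinoid X receptor that prevails in heart, had 0 of 13 peaks past 2-fold, with 1649 and 1917 normalized reads in sum (0.22). *Ncoa3*, a coactivator gene, had 0 of 13 past 2-fold (1145 and 1164, 0.02). *Pparg*, the PPAR gene of fat cells, had 1 of 10 peaks lower and 445 and 454 normalized reads in sum (0.03).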
